A study of Mus musculus with 24 samples.

Results

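The pore-forming and accessory subunits of the voltage-gated sodium and calcium channels are described here in cerebral cortex and blood of mouse neonates that had been exposed to traffic particles before birth. The members were the protein-coding genes whose symbols follow the Scn, Cacna1, Cacna2d, Cacnb and Cacng series. The 38 described here stand among 48709 genes in the count table, 22018 of which are protein-coding. They were 9 sodium channel alpha subunits, 3 sodium channel beta subunits, 10 calcium channel alpha1 subunits, 4 alpha2delta subunits, 4 calcium channel beta subunits and 8 gamma subunits. The rule used symbols and gene types only, so no measured value chose a member. The sodium leak channel Nalcn and its partners carry other symbols and were kept apart as a list.

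Sodium channel alpha subunits form the pore that opens on depolarization and starts the action potential, and the beta subunits are cell adhesion proteins that tune gating and place the pore at the axon initial segment and nodes. Calcium channel alpha1 subunits turn depolarization into calcium entry, which triggers transmitter release (the P/Q, N and R types), drives calcium signalling to the nucleus (the L types) or sets rhythmic firing (the T types). Alpha2delta and beta subunits bring these pores to the membrane, while most gamma subunits act in neurons as transmembrane AMPA receptor regulatory proteins (TARPs) rather than as parts of a calcium channel. In rodents the first days after birth are a period in which the embryonic sodium channel pattern gives way to the mature one.

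Pregnant C57BL/6 dams inhaled nano-sized particulate matter (nPM), collected from urban traffic air, or filtered air from early gestation until birth, with sessions of 5 h held on 3 days of each week. The sources differ in the unit of the particle concentration (milligrams in the labels, micrograms in the methods), in the strain (C57BL/6J or C57BL/6NJ) and in the age of the pups (3 to 5 days, or day 5 alone). Cortex and blood each had 12 ribosome-depleted RNA-seq libraries, 3 from nPM females, 3 from control females, 3 from nPM males and 3 from control males. The labels do not tie blood and cortex libraries to one pup or give litters, so the p-values measure the spread between these libraries.

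Cortex libraries held 22301409 to 33804371 counts on genes and blood libraries 13595647 to 21895536, with RNA integrity numbers (RIN) of 9.4 to 9.9 and 7.5 to 9.3. The 38 members took 0.355 to 0.405% of the counts of a cortex library and 0.000345 to 0.00769% of those of a blood library. Levels are given as CPM, which scales the counts of a gene by all counts on genes in its library. Where a gene had no count, its level could still reach the equivalent of 3 counts, which is 0.0887 to 0.135 CPM in cortex and 0.137 to 0.221 CPM in blood. These limits, and the intervals given for blood, hold for counting error alone. Reads carried no molecular identifiers, so copies made by PCR count as separate reads. The blood library V2 (control female) did not enter any blood comparison, and its values are given apart. Another blood library, V5 of an nPM male, held pan-neuronal transcripts at 38.5 CPM, against 0.206 to 10.5 CPM in the other 10, and blood values are given with and without it. In every cortex library the 7 pan-neuronal genes, which are not particular to cortex, summed to between 7017 and 8299 CPM. The 6 cortical excitatory neuron genes summed to between 743 and 984 CPM there. Markers of nearby tissue were present too, choroid plexus genes at 31.2 to 501 CPM and striatal genes at 76.4 to 271 CPM. Tissue was measured in bulk, so fewer cells of a type and less RNA per cell cannot be told apart.

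Levels of different genes were compared in cortex as CPM scaled with TMM factors and divided by the exon length in kb. Of the 38 members, 29 had a mean over 1 CPM per kb, and 36 had a count in all 12 cortex libraries and could be tested in the fit of both sexes. The muscle pore Scn4a and the muscle gamma subunit Cacng1 were the exceptions.

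Scn2a, the pore of the early axon initial segment, had the highest level of all 38, 60.8 ± 3.31 CPM per kb (SD, n = 12). It made up 61.5 ± 1.55% of the summed level of the 9 sodium channel alpha subunits (SD, n = 12). Scn3a, the embryonic pore, was at 16.5 ± 1.12 CPM per kb, Scn8a, the pore that takes over at mature nodes, at 11.3 ± 1.03, and Scn1a, the main pore of fast-spiking interneurons, at 8.72 ± 0.80 (SD, n = 12 each). Every Scn2a library lay above every Scn3a library and every Scn3a library above every Scn8a library, while Scn8a and Scn1a overlapped. The peripheral pores were far lower. Scn9a was at 1.30 CPM per kb, the glial and peripheral Scn7a at 0.193, the pain neuron pores Scn11a and Scn10a at 0.113 and 0.0219, and Scn4a, at 0.0113, was the lowest member.

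Scn2a, Scn3a, Scn1a, Scn9a and Scn7a lie side by side on chromosome 2 from 65457118 to 66784914 (mm10), and their mean levels ran from 0.193 to 60.8 CPM per kb. Scn10a and Scn11a lie within chromosome 9 from 119608456 to 119825456, at 0.0219 and 0.113 CPM per kb.

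Among the sodium channel beta subunits, Scn3b was highest at 47.2 ± 2.21 CPM per kb, followed by Scn2b at 19.5 ± 3.17 (SD, n = 12 each), and every Scn3b library lay above every Scn2b library. Scn4b, which supports resurgent sodium current in striatal and cerebellar neurons, was at 2.01 ± 0.95 CPM per kb (SD, n = 12). Of the 36 tested members it varied most, by 7.802-fold between its highest and lowest library, where the median member varied by 1.46-fold and 27 varied by less than 2-fold. The summed level of 7 striatal marker genes was read beside it. Both were lowest in V14, a control male, with Scn4b at 2.44 CPM and the striatal genes at 76.4 CPM. Both were highest in V10, a control female, at 19.04 and 271 CPM, while V24, a control male, had 16.9 CPM of Scn4b with 191 CPM of the striatal genes. The part of striatal tissue in the Scn4b values was not tested.

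**Figure D1:**
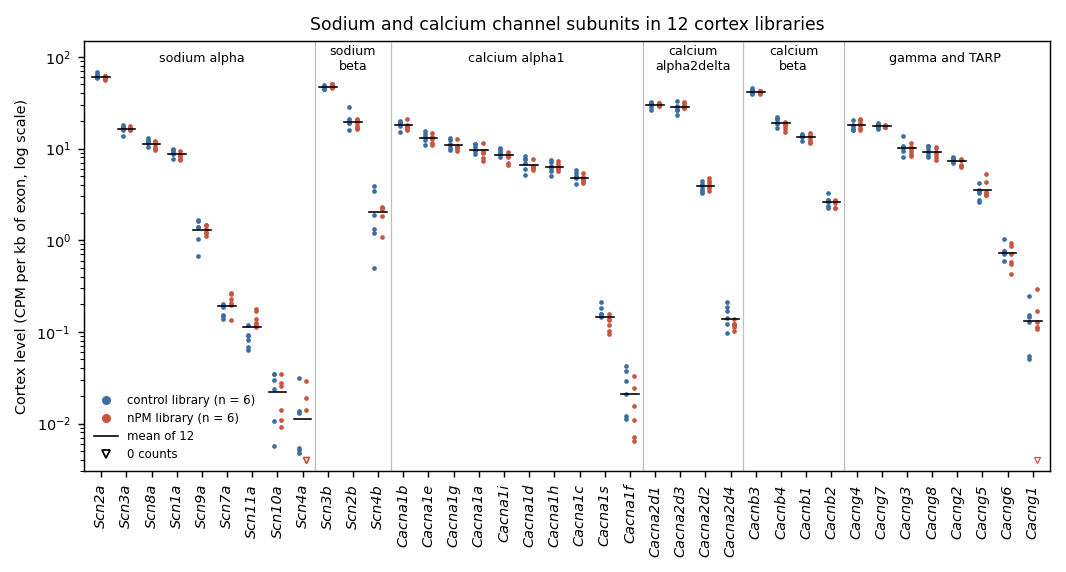
Level of each of 38 subunits in the 12 cortex libraries, in CPM per kb of exon on a log axis, grouped by subunit class and ordered by the mean (black line). Blue points are control and red points nPM libraries, and open triangles mark libraries with a count of 0. Scn2a, Scn3b and Cacnb3 lie at the top at 60.8, 47.2 and 41.6 CPM per kb, and the muscle, retinal and pain neuron members lie under 1 CPM per kb.

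Of the calcium channel alpha1 subunits, Cacna1b (N type) was highest at 18.04 ± 1.74 CPM per kb, then Cacna1e (R type) at 12.99 ± 1.44 and Cacna1g (T type) at 10.9 ± 1.21 (SD, n = 12 each). Below them came Cacna1a (P/Q type) at 9.57, Cacna1i (T type) at 8.58, the L types Cacna1d at 6.68 and Cacna1c at 4.83, and between these the T type Cacna1h at 6.36 CPM per kb. Each of these 8 overlapped its neighbour in the order, and together they spanned less than 4-fold. Cacna1s, the muscle pore, and Cacna1f, the retinal pore, were at 0.146 and 0.0209 CPM per kb.

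The accessory calcium channel subunits each had 1 or 2 leading genes. Among the alpha2delta subunits, Cacna2d1 was at 29.99 ± 1.63 and Cacna2d3 at 28.6 ± 2.77 CPM per kb (SD, n = 12), with overlapping ranges, Cacna2d2 was at 3.94 and the retinal Cacna2d4 at 0.137. The beta subunits kept a strict order in which no ranges overlapped, Cacnb3 at 41.6 ± 1.96, Cacnb4 at 18.8 ± 2.13, Cacnb1 at 13.3 ± 1.06 and Cacnb2 at 2.596 ± 0.30 CPM per kb (SD, n = 12). In the gamma series the TARP genes Cacng4 and Cacng7 were at 18.01 and 17.6 CPM per kb, Cacng3, Cacng8 and Cacng2 (stargazin) between 7.27 and 10.1, Cacng5 at 3.52, Cacng6 at 0.723, and Cacng1 at 0.132.

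The first comparison asked how nPM altered these genes when both sexes were fitted together, with sex and RIN in the model. Few members differed. With edgeR's quasi-likelihood test, 0 of 36 members had a p adjusted over all genes under 0.05, where 0.0144% of the 20857 genes tested did. At the study's nominal cutoff, an unadjusted p under 0.005, 0 members passed, against a background of 0.614%. At an unadjusted p under 0.05 there were 3, Scn11a higher and Cacna1i and Cacnb4 lower, against 5.67%. The adjusted count was also 0 with limma voom (background 0.0144%) and with DESeq2 (background 0.105%). It was 1 (Cacna1i, background 0.57%) when genes with a count in any library were let in. Leaving out V16 or V23, both from males, raised the nominal count to 2. The count at 0.05 was 1 without V15, 2 without V12, 5 without V9, V13 or V19, 6 without V20, 9 without V16 and 13 without V23. For these fits with 1 library left out, shares over all genes are not given. The nPM and control groups overlapped in all 36 members, where 0.197% of all genes had groups that did not.

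Scn11a, a sodium pore of nociceptors, was at 0.660 to 1.02 CPM after nPM (median 0.764) and 0.373 to 0.701 CPM in controls (median 0.501). The groups overlapped only narrowly, at between 11 and 34 counts per library. It differed by 0.69 on the log2 scale (SE 0.24, unadjusted p = 0.0106, adjusted p = 0.844 from edgeR). Cacna1i, a T-type pore of thalamic and cortical neurons, was at 65.1 to 91.5 CPM after nPM (median 80.8) and 79.0 to 98.8 CPM in controls (median 90.1), with a log2 fold change of -0.20 (SE 0.08, unadjusted p = 0.0211). Cacnb4, a beta subunit of P/Q-type channels, was at 134 to 174 CPM after nPM (median 162) and 150 to 198 CPM in controls (median 181), and differed by -0.18 on the log2 scale (SE 0.07, unadjusted p = 0.0234). In both the groups overlapped. Marker lists of other cell types were read in the same fit. The 7 interneuron genes, the 7 striatal genes and all 3 tested genes of hypothalamus and thalamus had fold changes above 0, with medians of 0.14, 0.26 and 0.30 on the log2 scale, and the 6 excitatory neuron genes were below 0, with a median of -0.11. All 4 choroid plexus genes were above 0 (median 0.29), as were 3 of 5 genes of meninges (median 0.28) and 4 of 7 pan-neuronal genes (median 0.007). Of the microglial genes 4 of 5 were below 0 (median -0.14). In these lists 1 interneuron gene, 1 of hypothalamus and thalamus and 1 of meninges passed the nominal cutoff. The part of these cell types in the values of Scn11a, Cacna1i and Cacnb4 was not tested.

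Taken by class, 9 of 10 alpha1 subunits, 4 of 4 beta subunits and 5 of 7 gamma subunits had a fold change below 0 in this fit, while 3 of 4 alpha2delta and 4 of 8 sodium channel alpha subunits were above 0. The median over the 36 members was -0.07, beside -0.002 over all genes tested. These are directions of estimates, and of the alpha1 subunits only Cacna1i had an unadjusted p under 0.05.

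In females alone, 3 nPM against 3 control libraries, 8 of the 10 calcium pores were lower after nPM at an unadjusted p under 0.05. Of all genes tested, 9% were lower at that cutoff. With edgeR, 1 of 37 members tested, Cacna1d, had an adjusted p under 0.05, against 1.11% of 21731 genes. The adjusted count depended on the setting. It was 1 with limma voom (background 1.04%), 2 without RIN (Cacna1d and Cacna1g, background 1.53%) and 2 with lane added (Cacna1d and Cacna1a, background 1.27%). With DESeq2 it was 5 (background 2.96%), which added Cacna1a, Cacna1g, Cacnb4 and Scn1a. When genes counted in any library were let in it was 10 (background 4.19%), 9 of them lower. At the nominal cutoff 7 passed with edgeR, against 4.02% of genes. All 7 were lower (background of lower genes 2.83%), namely Cacna1d, Cacna1a, Cacna1g, Cacna1c, Cacna1i, Cacnb4 and Scn1a. At an unadjusted p under 0.05, 15 passed, 13 lower and 2 higher, against 15.4%. The 3 nPM libraries did not overlap the 3 controls in 12 members (background 21.1%), and in 9 of these nPM was below control (background 11.2%). With 3 against 3 an exact permutation test cannot go below p = 0.1, and it gave that value for each of the 12.

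Cacna1d encodes the L-type pore that opens near resting voltage and paces neurons and sinoatrial cells. It lies on chromosome 14 from 30039949 to 30491156 (mm10, minus strand), where 2 genes of the other strand overlap it. Its libraries were at 59.9, 53.4 and 57.2 CPM in nPM females and at 75.8, 70.6 and 70.8 CPM in control females. All nPM females lay at least 10 CPM below the lowest control. The log2 fold change was -0.33 (SE 0.05, unadjusted p = 3.61e-05, adjusted p = 0.0132 from edgeR). Within lanes 2 and 3 the log2 ratios were -0.37 and -0.31. Over the other tests, filters, covariates and libraries left out, the fold change stayed between -0.37 and -0.30 and the adjusted p ranged from 4.91e-06 to 0.112.

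RefSeq lists 2 start sites for Cacna1d and 1 for Scn1a (GRCm38.p6, the assembly of mm10). The 250 bases before each are shown because Cacna1d was the member past the adjusted threshold and Scn1a the sodium pore past the nominal one. The counts add up all starts of a gene and cannot tell which was used. Capitals mark the TATA core TATAAA and the GC box core GGGCGG, searched on both strands, and matches that overlap run together in capitals.
Cacna1d, upstream start, chr14:30491157-30491406, minus strand: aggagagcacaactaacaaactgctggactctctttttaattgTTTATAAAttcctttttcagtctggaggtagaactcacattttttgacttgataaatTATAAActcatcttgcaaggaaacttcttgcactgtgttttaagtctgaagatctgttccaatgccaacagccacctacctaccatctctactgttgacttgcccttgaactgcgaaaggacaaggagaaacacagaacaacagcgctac
Cacna1d, inner start, chr14:30353487-30353736, minus strand: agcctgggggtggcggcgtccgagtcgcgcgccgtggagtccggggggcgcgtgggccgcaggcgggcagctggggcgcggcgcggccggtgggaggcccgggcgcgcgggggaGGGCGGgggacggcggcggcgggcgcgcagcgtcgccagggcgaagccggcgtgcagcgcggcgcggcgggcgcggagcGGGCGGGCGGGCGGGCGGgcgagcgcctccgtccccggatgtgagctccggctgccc
Scn1a, chr2:66440838-66441087, minus strand: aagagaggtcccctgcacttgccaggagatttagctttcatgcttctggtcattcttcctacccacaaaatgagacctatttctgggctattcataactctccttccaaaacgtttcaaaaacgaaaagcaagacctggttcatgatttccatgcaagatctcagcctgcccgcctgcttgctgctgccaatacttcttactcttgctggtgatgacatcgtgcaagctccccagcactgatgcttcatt
The upstream Cacna1d window was 39.6% G and C with 2 CpG dinucleotides, the inner one 86.4% with 50, and the Scn1a window 46.8% with 4. TATAAA occurred in 12.4% of the 32851 promoter windows of the table and in 2 of 41 windows of the 30 members found there. GGGCGG occurred in 32.7% of all windows and in 15 of the 41. These matches are letters in a window and describe no binding.

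The other lower members at the nominal cutoff were 4 calcium pores, 1 calcium beta subunit and 1 sodium pore. Cacna1a, the presynaptic P/Q-type pore, was at 106, 89.2 and 102 CPM in nPM females and at 128, 120 and 111 CPM in control females, and Cacna1g, a T-type pore, at 105, 100 and 107 CPM against 124, 134 and 114 CPM. Cacna1c, the L-type pore that signals to the nucleus, was at 96.6, 90.7 and 104 CPM against 123, 105 and 115 CPM. In these 3 every nPM library lay below every control, in Cacna1c by little. The log2 fold changes were -0.25 (SE 0.05) for Cacna1a, -0.25 (SE 0.06) for Cacna1g and -0.21 (SE 0.05) for Cacna1c, with adjusted p-values from edgeR of 0.0525, 0.0676 and 0.0854.

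Scn1a, on chromosome 2 from 66270778 to 66440840, was at 98.3, 84.4 and 86.4 CPM in nPM females and at 105, 110 and 106 CPM in control females, again without overlap (log2 fold change -0.26, SE 0.06, adjusted p = 0.0697 from edgeR). Cacnb4 was at 168, 147 and 134 CPM against 176, 167 and 194 CPM, and Cacna1i at 86.6, 68.5 and 79.5 CPM against 98.6, 98.8 and 86.0 CPM. In both the highest nPM library just passed the lowest control. Their log2 fold changes were -0.28 (SE 0.07) and -0.25 (SE 0.07), with adjusted p-values of 0.102 and 0.121 from edgeR.

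**Figure D2:**
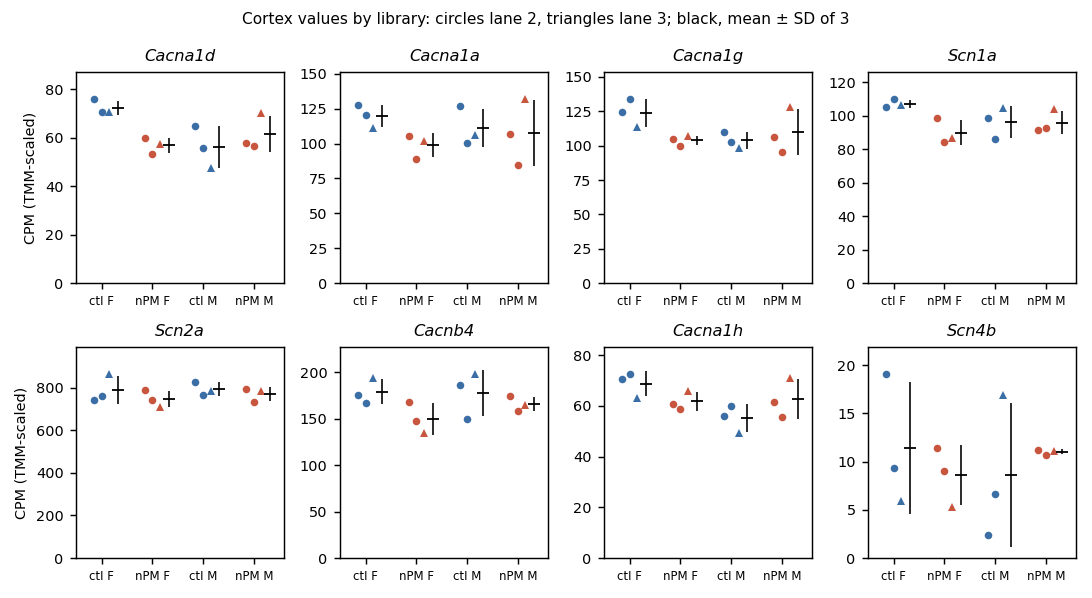
TMM-scaled CPM of 8 members in each cortex library by exposure and sex, with control (ctl) in blue, nPM in red, circles for lane 2, triangles for lane 3, and the mean ± SD of 3 libraries in black. Cacna1d, Cacna1a, Cacna1g and Scn1a separate by exposure in females and not in males, Scn2a and Cacna1h overlap in both sexes, and Scn4b spans 2.44 to 19.04 CPM.

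Further members reached an unadjusted p under 0.05 in females without passing the nominal cutoff. They were the R-type pore Cacna1e (log2 fold change -0.21), the nodal sodium pore Scn8a (-0.20), the N-type pore Cacna1b (-0.14), Scn9a (-0.23), Cacnb2 (-0.23) and Cacna1h (-0.13), all below 0, and Scn11a (0.88) and the TARP Cacng4 (0.21), above 0. Cacna1e was at 332, 290 and 317 CPM in nPM females and at 362, 338 and 387 CPM in control females. Scn8a was at 186, 155 and 165 CPM against 204, 187 and 195 CPM, and Cacna1b at 177, 160 and 180 CPM against 191, 194 and 188 CPM. The groups did not overlap in these 3 pores. Scn9a, which serves sensory and hypothalamic neurons, was at 15.2, 16.8 and 18.5 CPM against 21.4, 17.95 and 20.7 CPM, and there 1 nPM library passed the lowest control.

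The most abundant sodium, alpha2delta and beta subunits did not pass. Scn2a was at 711 to 789 CPM in nPM females and 743 to 862 CPM in controls, and Scn3a at 197 to 217 and 207 to 224 CPM (log2 fold changes -0.10, SE 0.06, and -0.06, SE 0.05). Cacna2d1 and Cacna2d3 differed by 0.01 (SE 0.06) and 0.08 (SE 0.08), and Scn2b by -0.11 (SE 0.08). Scn3b and Cacnb3 were slightly higher, at 260 to 280 against 247 to 258 CPM and 131 to 132 against 122 to 127 CPM, without overlap, but with unadjusted p-values of 0.0674 and 0.114 from edgeR. By class, 9 of 10 alpha1 subunits had a fold change below 0 in females, where 50.4% of all genes did. Their class median was -0.23, beside -0.002 over all genes. At an unadjusted p under 0.05, 8 of the alpha1 subunits were lower, against 9% of all genes. The 4 alpha2delta subunits had a median of 0.04.

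The female counts varied with the library left out, and each such fit held fewer libraries. Shares over all genes are not given for these fits, nor for the lane counts that follow. The adjusted count was 0 when V10, V11, V12, V19 or V20 was left out and 7 without V9. The nominal count was 4 without V10, 1 without V11, 5 without V12 or V20, 3 without V19 and 10 without V9. At 0.05 it was 8 without V19. Within lanes, of the 36 members also tested in both sexes together, 19 were lower in nPM females in both lane 2 and lane 3 and 7 were higher in both, and lane 3 is 1 library against 1. Beside this, 4 of the 7 pan-neuronal genes had a fold change below 0 in females, with a median of -0.03, and their sum was 7633 to 7983 CPM in nPM females and 7017 to 7789 CPM in control females. Of the excitatory neuron genes 4 of 6 were below 0 (median -0.11), and of the interneuron genes 6 of 7 were above 0 (median 0.16, 1 at the nominal cutoff). The 4 choroid plexus genes were all above 0 (median 0.19, 1 at the nominal cutoff), as were 4 of 5 genes of meninges (median 0.22, 1 at the nominal cutoff), 5 of 7 striatal genes (median 0.07, 1 at the nominal cutoff) and 3 of 4 tested genes of hypothalamus and thalamus (median 0.16, 1 at an adjusted p under 0.05). Of the microglial genes 4 of 5 were below 0 (median -0.13). Their part in the female result was not tested.

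**Figure D3:**
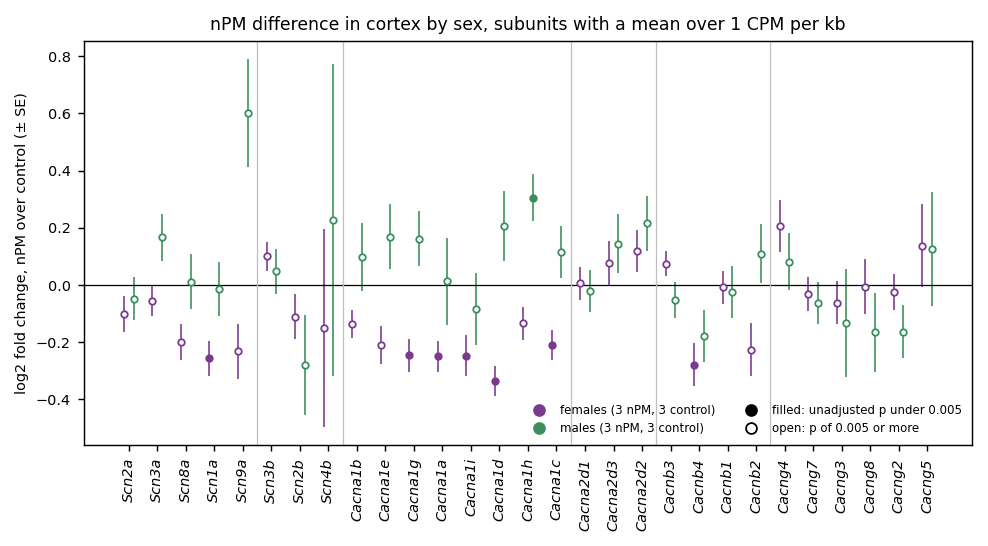
Log2 fold change of nPM over control (± SE) in females (purple) and males (green), from separate fits of 6 libraries each, for the 29 subunits over 1 CPM per kb in subunit order. Filled points have an unadjusted p under 0.005. In the calcium alpha1 block all 8 female points lie below 0, and Cacna1h is the only filled male point at 0.31.

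Of the 7 members lower in females at the nominal cutoff, 6 span over 100 kb of genome. Protein-coding genes that span over 300 kb had a median log2 fold change of -0.06 in females, 69.8% of them were below 0 and 8.89% were lower at the nominal cutoff. For those of 100 to 300 kb these shares were 60.2% and 4.83%. Genes of up to 10 kb had a median of 0.06, with 35.4% below 0 and 0.653% lower at the cutoff. In males the order was the other way round, 0.03 for genes over 300 kb and -0.04 for those of up to 10 kb. Of the 20 members that span over 100 kb and were tested in females, 16 were below 0 and 6 were lower at the nominal cutoff. The medians of these members were -0.17 for 100 to 300 kb (14 members) and -0.21 over 300 kb (6 members), where all protein-coding genes of those spans had -0.03 and -0.06. Cacna1g, at 65.8 kb, was lower with a shorter span. The part of gene length in the female result was not tested.

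**Figure D4:**
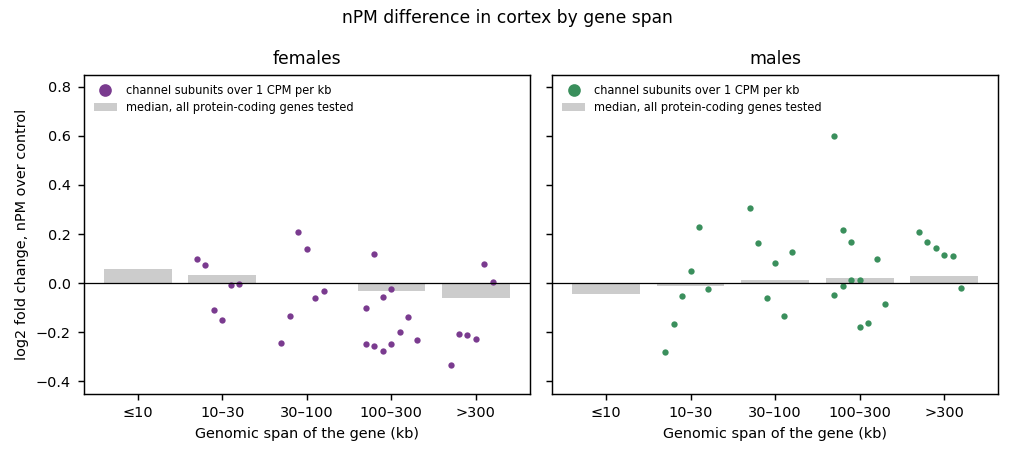
Log2 fold change of nPM over control in females (left) and males (right) by genomic span of the gene in kb. Grey bars are the median of all protein-coding genes tested in each bin, and points are the subunits over 1 CPM per kb. In females the bars go from 0.06 for the shortest to -0.06 for the longest genes and most subunit points in the last bins lie below them, and in males the bars go from -0.04 to 0.03.

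In males alone, by edgeR, 0 of 36 members had an adjusted p under 0.05 (background 0% of 21670 genes). The adjusted count was also 0 with limma voom (background 0%) and with DESeq2 (background 0.0138%). It was 1 (Scn9a, background 0.507%) when genes counted in any library were let in. By edgeR, 1 passed the nominal cutoff against 0.318%, and at an unadjusted p under 0.05 there were 2, both higher, against 4.51%. Groups did not overlap in 3 members (Cacna1s, Cacna2d4 and Cacna1f, all lower after nPM), against 9.2% of genes. Cacna1h, a T-type pore, was at 61.6, 55.5 and 71.1 CPM in nPM males and at 56.1, 60.0 and 49.2 CPM in control males. The ranges overlapped, and the log2 fold change of 0.31 (SE 0.08, unadjusted p = 0.00438, adjusted p = 0.962 from edgeR) came from the fit with RIN. The nominal count was 0 without V13, V16 or V23 and 3 without V14. The count at 0.05 was 3 without V13 or V15, 5 without V16 or V24, 9 without V14 and 10 without V23. No shares over all genes are given beside these left-out counts. Scn9a was at 14.4, 15.7 and 18.9 CPM against 13.3, 17.96 and 8.52 CPM (0.60, SE 0.19, unadjusted p = 0.0109). In the same fit all 7 striatal genes (median 0.65), all 3 tested genes of hypothalamus and thalamus (median 0.74), all 4 choroid plexus genes (median 0.63) and 6 of 7 interneuron genes (median 0.20) were above 0. Below 0 were 6 of 7 pan-neuronal genes (median -0.09), 5 of 6 excitatory neuron genes (median -0.13) and 5 of 5 microglial genes (median -0.26). The control male V14 stood apart, with choroid plexus genes at 31.2 CPM, against 232 to 406 CPM in the other 5 males. Without V14 the fold changes were 0.39 for Cacna1h and 0.81 for Scn9a. The part of these tissues and cell types in the male values was not tested.

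For Cacna1d the male libraries were at 57.9, 56.6 and 70.3 CPM after nPM and at 64.8, 55.9 and 47.6 CPM in controls, which gave 0.21 on the log2 scale (SE 0.12, unadjusted p = 0.124 from edgeR). The highest of these 6 values came from V23. This library, an nPM male of lane 3, was the highest of the 3 nPM males in all 8 alpha1 subunits over 1 CPM per kb, and V15 was the lowest in all 8. Summed over the 8, the level was 75.7, 66.1 and 89.1 CPM per kb in nPM males V13, V15 and V23, and 82.5, 74.0 and 68.3 CPM per kb in control males V14, V16 and V24. The same sum was 76.7, 68.4 and 76.1 CPM per kb in nPM females and 88.3, 86.6 and 83.6 CPM per kb in control females. The groups therefore did not overlap in females and overlapped in males. Within lane 2, 7 of these 8 members were lower in nPM males, and within lane 3, where each group is 1 library, 0 of 8 were. Beside these lane counts, shares over all genes are not given.

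The interaction of nPM with sex tested whether the difference itself was larger in one sex. By edgeR 0 of 36 members had an adjusted p under 0.05 (background 0%). The adjusted count was also 0 with limma voom (background 0%) and with DESeq2 (background 0.479%). By edgeR, 0 passed the nominal cutoff (background 1.35%) and 8 had an unadjusted p under 0.05 (background 9.68%). The smallest p was that of Cacna1d, whose difference in males was 0.48 above that in females on the log2 scale (SE 0.15, unadjusted p = 0.00641, adjusted p = 0.369). Cacna1g (0.35, SE 0.13), Cacna1h (0.35, SE 0.14), Scn9a (0.62, SE 0.28), Cacna1e (0.32, SE 0.15) and Cacnb2 (0.31, SE 0.15) followed in that direction. Cacnb3 (-0.17, SE 0.07) and Cacna1f (-2.15, SE 0.92, at 2 to 12 counts per library) went the other way. When genes counted in any library were let in, 4 members had an adjusted p under 0.05 with edgeR (background 1.17%), Cacna1d (adjusted p = 0.00094), Scn9a (0.0129), Cacna1g (0.0363) and Cacna1e (0.0482), so the adjusted result rested on the count filter. The count at an unadjusted p under 0.05 was 4 without V10, V12 or V23, 3 without V11 or V19, and 5 without V14, V16 or V20. Beside these counts, shares over all genes are not given.

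The sex term of the fit of both sexes without the interaction asked which members differed between males and females, averaged over exposures. By edgeR 0 members had an adjusted p under 0.05 (background 0.0336%). The adjusted count was also 0 with limma voom (background 0.0336%) and with DESeq2 (background 0.171%). By edgeR, 0 passed the nominal cutoff (background 0.518%), and 2 had an unadjusted p under 0.05 (background 6.09%). The alpha2delta subunit Cacna2d2 was at 26.3 to 33.4 CPM in males (median 30.2) and 27.5 to 38.4 CPM in females (median 33.81), a log2 difference of -0.22 (SE 0.08) for male minus female. Cacna2d4 differed by 0.50 (SE 0.20) at 22 to 63 counts per library. Its control males were at 1.79 ± 0.21 CPM against 1.14 ± 0.21 in control females, and its nPM males at 1.11 ± 0.0427 against 1.14 ± 0.16 in nPM females (SD, n = 3 each). Over both exposures the sexes overlapped in both genes. All 10 alpha1 subunits had an estimate below 0 in males, none of them at an unadjusted p under 0.05. Without V23 the nominal count was 3 and without V16 it was 1. At 0.05 the counts were 11 without V23, 4 without V16 or V20, 3 without V15 and 1 without V10. For these left-out fits, shares over all genes are not given. In the fit with no library left out, all 7 striatal genes (median -0.55) and 6 of 7 interneuron genes (median -0.24) were lower in males. So were all 3 tested genes of hypothalamus and thalamus (median -0.60) and all 4 choroid plexus genes (median -0.53). All 7 pan-neuronal genes (median 0.08) and 4 of 6 excitatory neuron genes (median 0.06) were higher in males. The part of these lists in the sex term was not tested.

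Genes whose products hold or regulate these channels were read from 3 lists. They comprise 14 sodium channel partners (ankyrins, spectrin, neurofascin, fibroblast growth factor homologous factors and others), 17 calcium channel partners (Stac adaptors, RGK proteins, Rim proteins and kinases among them) and the NALCN complex, of which 4 genes were in the table. With both sexes in the fit, none of the 34 tested passed the nominal cutoff. The smallest p-values were those of Cabp1, a calcium binding protein of the L and P/Q types (log2 fold change -0.16, SE 0.06, unadjusted p = 0.0160), the active zone protein Rims2 (-0.09, SE 0.04, unadjusted p = 0.0535) and Nfasc, the adhesion protein of the axon initial segment (-0.15, SE 0.07, unadjusted p = 0.0539).

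In females, 6 of the 34 partners tested were lower at the nominal cutoff, where 2.83% of all genes were. Nfasc was at 101 to 122 CPM after nPM and 133 to 149 CPM in controls, without overlap. Its log2 fold change was -0.26, with an SE of 0.05 and an adjusted p of 0.0277 by edgeR. The others were the axon initial segment scaffold proteins Sptbn4 (-0.23) and Ank3 (-0.20), the muscle calcium channel adaptor Stac3 (-0.76, at 1.18 to 2.52 CPM) and the NALCN subunits Unc80 (-0.32) and Unc79 (-0.18). All 4 NALCN complex genes had a fold change below 0 in females, and 3 of 4 were above 0 in males. In males the same 6 partners had fold changes of 0.06 to 0.34 with unadjusted p-values of 0.121 to 0.676 from edgeR. In females, sodium channel partners were below 0 in 9 of 14 and calcium channel partners in 9 of 16, with medians of -0.05 and -0.02.

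Blood was the peripheral tissue collected beside cortex. In 33 of the 38 members every cortex library was above every one of the 11 blood libraries in CPM, and this held for 54.5% of all genes with a count. The exceptions were Cacna1f, Cacng1, Scn11a, Scn10a and Scn4a, all under 1 CPM per kb in cortex. Globin took 66.2 to 76.8% of the counts of these blood libraries. With counts outside globin genes the number was 31, against 45.5% of all genes. With V2 included it was 30, against 41.8% of all genes, and without V5 it was 34, against 55%. No member had all blood libraries above all cortex libraries.

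Only 7 members had a count in each of the 11 blood libraries, and 6 of them were calcium pores. Cacna1e had 7 to 163 counts, Cacna1g 10 to 59, Cacna1a 1 to 47, Cacna1c 1 to 44, Cacna1i 3 to 22, Cacna1h 1 to 16 and the muscle sodium pore Scn4a 1 to 6. Cacna1e at 163, Cacna1g at 59 and Cacna1a at 47 counts were all highest in V5, as were 29 of the 38 members. Scn2a, the leading sodium pore of cortex, had 53 counts in V5, 16 to 27 in the 4 lane 3 libraries (V17, V18, V21 and V22) and 0 in the other 6. The T-type pore Cacna1g was spread more evenly, at 10 to 38 counts in all of these 11 libraries but V5.

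The 38 members together gave 58 to 214 counts per library in the 10 libraries other than V2 and V5, or 3.45 to 10.6 CPM. In V5 they gave 915 counts, 49.6 CPM (95% Wilson interval 46.5 to 52.9), and 34 of the 38 had a count. In V2 they gave 1628 counts, 76.9 CPM (95% Wilson interval 73.2 to 80.7). Counts were above those of each of the 10 other libraries for 27 members in V2 and 29 in V5, and 21 of these were the same. Cacna1g had 323 counts in V2 and 59 in V5, Cacna2d1 198 and 47, and Cacna1c 143 and 44. Cacna1s had 31 counts in V2 and 0 in V5, and Scn7a 77 and 2, while Scn2a had 2 and 53 and Cacna1b 3 and 86. Genes of meninges and connective tissue summed to 2376 CPM in V2 and 17.5 CPM in V5, skeletal muscle genes to 48.8 and 2.55 CPM, and pan-neuronal genes to 79.8 and 38.5 CPM. The lane 3 blood libraries had 6.92 to 10.5 CPM of pan-neuronal genes, and those of lane 1 other than V2 and V5 had at most 1.24 CPM. Lane 1 held blood libraries only, while lane 3 held both blood and cortex libraries. The part of the shared lane and of cells of other tissues in these blood values was not tested.

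**Figure D5:**
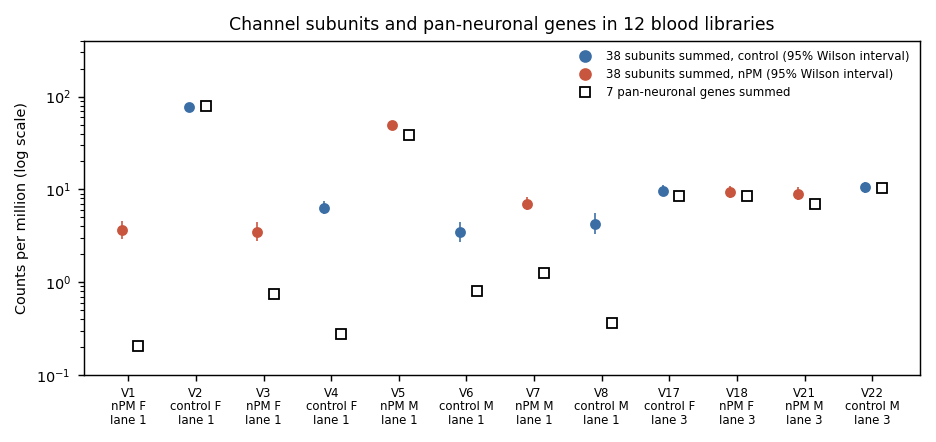
Summed CPM of the 38 subunits in each blood library (filled circles, with 95% Wilson intervals, blue control and red nPM) and of 7 pan-neuronal genes (open squares), on a log axis, ordered by sequencing lane. V2 and V5 stand at 76.9 and 49.6 CPM, and the other 10 lie between 3.45 and 10.6 CPM.

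For the effect of nPM in blood, 0 of the 7 tested members had an adjusted p under 0.05 with edgeR (background 0% of 9977 genes). In the same fit 0 passed the nominal cutoff (background 0.17%) or an unadjusted p under 0.05 (background 3.11%). The adjusted count was also 0 with limma voom (background 0%) and DESeq2 (background 0.01%). Cacna1e had the largest fold change, 0.61 on the log2 scale (SE 0.57, unadjusted p = 0.295 from edgeR). Its counts were 28, 7, 20, 163, 20 and 19 in nPM libraries and 39, 7, 9, 31 and 37 in controls, and V5 carried the high value. Without V5 the fold change was -0.39. Cacna1a changed from 0.54 to -0.24 and Cacna1g from 0.21 to -0.09 in the same way, so these 3 directions changed without 1 library. The 31 members without a count in every library were left out by the filter on counts. When genes counted in any library were let in, 1 member, Cacna1b, had an adjusted p under 0.05 with edgeR (log2 fold change 3.19, background 0.125%). It had 86 counts in V5 and at most 10 in the other libraries.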

How the data were processed

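Total RNA of blood and dissected cerebral cortex was depleted of ribosomal RNA (RiboZero Gold) and sequenced by Illumina. The authors trimmed the reads (Trimmomatic), aligned them to mm10 with HISAT2, and made the deposited counts per gene with featureCounts 1.5.0-p3 on Gencode M11 genes. The counts carry no normalization. The deposited gene table gives coordinates, types and lengths, and its mean RPKM values made by the authors were not used. Whether the libraries keep strand is not given in the sources used here, so reads of the 21 members that overlap a gene of the other strand may hold reads of that gene.

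A gene entered a fit if no library in it had 0 counts. After TMM normalization, edgeR 4.0.16 (R 4.3.3) gave two-sided quasi-likelihood F tests, with p-values adjusted by Benjamini and Hochberg over all genes tested. Covariates were exposure, sex and RIN, with the exposure-by-sex term added for the interaction, and exposure and RIN within a sex. SE were derived from the fold change and the F statistic. Calls were an adjusted p under 0.05 and the nominal cutoff of 0.005. Single members were compared by two-sided exact permutation tests. The study dropped 1 blood sample for its count distribution. V2, with connective tissue genes at 2376 CPM, was left out here, and whether it is that sample is not given in the sources used here. Cortex CPM were scaled with TMM factors and blood CPM were not. Alternatives were limma voom (limma 3.58.1), DESeq2 1.42.0, RLE factors, other count filters, no RIN, lane added, each library left out, and V2 included. Scripts were tested on simulated counts.

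Of the 40 genes that match the rule, 2 are not reported here, and counts of members leave them out. Named members were the 14 with the smallest p in 4 cortex comparisons, the 3 highest per kb in each of 4 classes and those with a count in every blood library, 23 in all, with the partners of smallest p. Other members were placed by level or counts, or chosen after their values were seen. The members, lists and rules were chosen with earlier results of these data known.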

Additional observations from a re-analysis of the deposited data

Results flagged for a closer look

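In groups of 5 or 6 libraries, the highest or lowest value was held against the rest of its group for the 23 named members. This marked 5 of 58 groups (8.62%), where chance flags about 1 in 20 groups. The groups pool both sexes, so a difference between the sexes adds to their range.

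In cortex, Cacna1g was at 128 CPM in V23, an nPM male, and the other nPM libraries lay between 95.2 and 107 CPM.

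In blood, values are CPM without TMM scaling. V5, an nPM male, stood above the other nPM libraries in Cacna1a, at 2.55 CPM against 0.0492 to 0.686, in Cacna1e, at 8.83 CPM against 0.345 to 1.44, and in Cacna1g, at 3.198 CPM against 0.777 to 1.60. The muscle pore Scn4a was at 0.296 CPM (6 counts) in V22, a control male, and the other controls lay between 0.0736 and 0.137 CPM.

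The blood library V2 entered no comparison, and its summed level of the 38 members, 76.9 CPM, lay above the 3.45 to 10.6 CPM of the other control blood libraries.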

How the results depend on the processing

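Of 66 estimates for named members, 48 kept their direction under every alternative and library left out, and 18 changed sign somewhere. None of the latter had an unadjusted p under 0.05 in the first place. With genes counted in any library, the adjusted counts were 1 (both sexes, background 0.57%), 10 (females, 4.19%), 1 (males, 0.507%), 4 (interaction, 1.17%) and 1 (blood, 0.125%). The nominal counts there were 3 (both sexes), 2 (sex), 11 (females), 3 (males), 5 (interaction) and 1 (blood). With DESeq2 the adjusted count was 5 (females, 2.96%), and the nominal counts 2 (males) and 1 (interaction). Without RIN, females had 2 adjusted (1.53%), the interaction 1 nominal and males 0 nominal calls. With lane added, females had 2 adjusted (1.27%) and males 2 nominal calls, and with at least 10 counts in every library males had 0 nominal calls. The shares of all genes at the nominal cutoff under these alternatives are not given. In males, the log2 fold changes without RIN were -0.041 for Cacna1a, 0.00011 for Scn1a and -0.0099 for Scn8a, and with lane added -0.0196 for Cacna1a and -0.0091 for Scn8a. In blood, Cacna1c was at -0.031 with limma voom, -0.55 with lane added and -0.0453 with all 12 libraries. The cause was not tested.

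With each library left out in turn, nominal counts ran from 0 to 2 (both sexes), 0 to 3 (sex), 1 to 10 (females), 0 to 3 (males) and 0 to 2 (interaction), and the adjusted count in females from 0 to 7. Shares over all genes are not given beside these counts. Estimates that changed sign with both sexes ran from -0.0581 to 0.0601 (Cacna1h), -0.13 to 3.05e-05 (Cacna1e) and -0.11 to 0.14 (Scn9a). In males they ran from -0.39 to 0.20 (Cacna1a), -0.0511 to 0.27 (Cacna1g), -0.26 to 0.0785 (Scn1a), -0.0143 to 0.26 (Cacna1c), -0.38 to 0.0118 (Cacna1i), -0.20 to 0.0724 (Scn8a) and -0.0928 to 0.31 (Cacna1b), with V23 giving each low end. For the interaction they ran from -0.0652 to 0.34 (Cacna1a) and -0.0775 to 0.23 (Cacna1i), and in blood from -0.39 to 0.90 (Cacna1e), -0.0856 to 0.38 (Cacna1g), -0.24 to 1.31 (Cacna1a), -0.25 to 0.46 (Cacna1i), -0.26 to 1.04 (Cacna1c) and -0.29 to 0.31 (Scn4a).

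No paired analysis was possible because the replicate numbers follow accession order only and the labels do not tie blood and cortex libraries to one pup. Members with few counts, such as Scn11a and Cacna1f in cortex and all members in blood, were limited by depth.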
